A study of Homo sapiens with 12 samples.

Results

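The glucocorticoid receptor, encoded by NR3C1, and 9 genes known as its targets in human cells (FKBP5, TSC22D3, KLF9, CEBPD, SGK1, SCNN1A, RASD1, GLUL and METTL7A) were followed in A549 cells, a human lung adenocarcinoma line, after GOLM1 was silenced. The 10 genes were taken by symbol out of 57773 genes in the table of counts, and all 10 were among the 17532 genes with enough counts to be tested. They were chosen by their measured values in these libraries: several of them differ between control replicates 3 and 4 and control replicates 1 and 2. Their differences between those control pairs, and from the control group, are therefore given as descriptions, with no p-value. Where calls against control are counted, nothing is supported with them.

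RNA was sequenced from 4 libraries of cells transfected with siGOLM1-1, 4 with siGOLM1-2 and 4 with a non-targeting control siRNA. All 3 groups received siRNA at 50 nM in medium with 10% fetal bovine serum and were harvested after 72 h, and the labels' protocols name no added glucocorticoid. The labels call the 4 libraries of a group biological replicates, and no label used here tells control replicates 3 and 4 from control replicates 1 and 2. Knockdown by siRNA leaves residual transcript, and both siRNAs were tested in this 1 cell line.

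The glucocorticoid receptor is a steroid hormone receptor that waits in the cytoplasm in a complex with HSP90 and its co-chaperones. Cortisol or a synthetic steroid such as dexamethasone binds it, and it moves to the nucleus, where it binds DNA elements and raises the transcription of some genes while lowering that of others, many of them inflammatory. In lung epithelium it drives epithelial sodium channel subunits, surfactant maturation and anti-inflammatory regulators, and A549 cells are a common model of that response.

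Libraries held between 41.6 M and 71.3 M counts each. GOLM1, the silenced gene, lay between 37.5 and 38.9 CPM (counts per 1 M of the scaled library total) with siGOLM1-1, between 44.6 and 53.4 CPM with siGOLM1-2 and between 345 and 378 CPM in the control. It fell with siGOLM1-1 (log2 fold change -3.25, SE 0.07, edgeR adjusted p = 4.97e-12) and with siGOLM1-2 (-2.95, SE 0.07, adjusted p = 1.57e-11). The epithelial markers KRT8, KRT18 and CDH1 were at 96.8 CPM or above in every library, and EPCAM was at 3.02 to 6.28 CPM. Of the blood markers, PTPRC and CD68 stayed at or below 0.11 CPM and LYZ at or below 1.09 CPM. The endothelial genes CDH5 and VWF stayed at or below 1.82 CPM. Of the fibroblast markers, DCN stayed at or below 0.12 CPM, COL3A1 reached 7.58 CPM and COL1A1 was at 21.3 to 92.8 CPM. In such bulk libraries, fewer cells of a type and less RNA per cell cannot be told apart.

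The receptor binds elements built from inverted copies of TGTTCT around a spacer, so the 250 bases before each annotated start were searched for the core ACANNNTGT and for TGTTCT, on both strands. The letters of these motifs overlap in a full element. RefSeq start sites on GRCh38.p14 were found for 8 of the 10 genes, METTL7A under the symbol TMT1A, and gave 21 windows. The core was in 1 of the 21 windows, upstream of TSC22D3, and TGTTCT was in 0 of them. Among 35116 windows of the same length over all genes, 4.61% held the core and 12.4% held TGTTCT. A match describes letters only, and much of the binding of this receptor is known to lie far from start sites.

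Windows of 4 of the 5 genes that stood at least 2-fold higher in control replicates 3 and 4 are printed here, because these genes carry the contrast described next. Of the 4 windows of TSC22D3, only the 1 with the core is printed, and the others held no match. Coordinates are of GRCh38.p14, not of the hg19 build to which the reads were aligned. Sequences run 5′ to 3′ in the direction of the gene and end at the base before its start, and capitals mark the core.
FKBP5, minus strand, chr6:35728584-35728833: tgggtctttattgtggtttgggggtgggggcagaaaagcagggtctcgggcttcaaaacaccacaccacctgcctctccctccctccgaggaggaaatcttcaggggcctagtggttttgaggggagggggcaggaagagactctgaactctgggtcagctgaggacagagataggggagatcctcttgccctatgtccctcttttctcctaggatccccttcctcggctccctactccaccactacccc
FKBP5, minus strand, chr6:35688916-35689165: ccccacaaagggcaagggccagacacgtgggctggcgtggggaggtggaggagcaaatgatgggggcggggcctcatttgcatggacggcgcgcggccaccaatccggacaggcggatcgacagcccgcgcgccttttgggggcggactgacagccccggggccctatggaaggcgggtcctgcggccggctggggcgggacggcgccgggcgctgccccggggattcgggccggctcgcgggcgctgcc
TSC22D3, minus strand, chrX:107775788-107776037: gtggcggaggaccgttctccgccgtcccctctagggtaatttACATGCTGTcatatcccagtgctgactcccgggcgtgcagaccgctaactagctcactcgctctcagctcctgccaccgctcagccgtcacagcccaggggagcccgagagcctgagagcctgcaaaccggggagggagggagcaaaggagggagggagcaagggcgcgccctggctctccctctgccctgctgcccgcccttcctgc
KLF9, minus strand, chr9:70414658-70414907: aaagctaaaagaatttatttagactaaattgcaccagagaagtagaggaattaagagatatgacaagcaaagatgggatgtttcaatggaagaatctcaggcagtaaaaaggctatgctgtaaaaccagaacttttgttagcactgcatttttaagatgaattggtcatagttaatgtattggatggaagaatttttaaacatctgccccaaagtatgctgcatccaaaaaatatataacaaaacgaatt
METTL7A, plus strand, chr12:50924765-50925014: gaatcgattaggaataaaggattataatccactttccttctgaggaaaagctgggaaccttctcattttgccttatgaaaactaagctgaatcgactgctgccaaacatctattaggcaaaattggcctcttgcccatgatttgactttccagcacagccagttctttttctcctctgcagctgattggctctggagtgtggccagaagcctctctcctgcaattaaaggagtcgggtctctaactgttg
The core ACATGCTGT begins at position -208 from the start in this TSC22D3 window, 1 of 4 such windows of the gene.

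The receptor transcript itself stayed between 122 and 217 CPM. NR3C1 (ENSG00000113580) was at 185, 143, 164 and 122 CPM in siGOLM1-1 replicates 1 to 4. It was at 197, 217, 200 and 196 CPM in siGOLM1-2 replicates 1 to 4, and at 203, 192, 181 and 175 CPM in control replicates 1 to 4. All 4 siGOLM1-1 libraries were below all 4 siGOLM1-2 libraries, while the control overlapped both groups. The siGOLM1-1 level was 0.29 lower than the control on the log2 scale (SE 0.11) and the siGOLM1-2 level 0.11 higher (SE 0.10). Control replicates 3 and 4 differed from control replicates 1 and 2 by -0.15, so receptor mRNA was close to level across the split that its targets showed.

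FKBP5 (ENSG00000096060), the co-chaperone that the receptor induces and that in turn lowers the receptor's affinity for hormone, split the control libraries into pairs. It was at 221 and 225 CPM in control replicates 3 and 4, against 22.8 and 22.6 CPM in control replicates 1 and 2, a 9.83-fold difference. The siGOLM1-1 libraries held 17.7, 17.0, 19.1 and 14.9 CPM and the siGOLM1-2 libraries 11.4, 13.2, 12.9 and 11.8 CPM. All 8 knockdown libraries were below all 4 controls, but the lower control pair was near them and the higher pair far above. SCNN1A (ENSG00000111319), the alpha subunit of the epithelial sodium channel, followed the same order. Its level was 203 and 215 CPM in control replicates 3 and 4, against 12.2 and 13.8 CPM in control replicates 1 and 2, a 16.1-fold difference. With siGOLM1-1 it was at 10.8, 14.2, 16.6 and 17.0 CPM, and with siGOLM1-2 at 10.7, 8.70, 11.9 and 8.41 CPM. All 8 knockdown libraries lay below control replicates 3 and 4. The siGOLM1-1 libraries overlapped control replicates 1 and 2, and the siGOLM1-2 libraries lay just below that pair. Ranked by this ratio among 17530 genes, SCNN1A was number 11 and FKBP5 number 16.

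**Figure D1:**
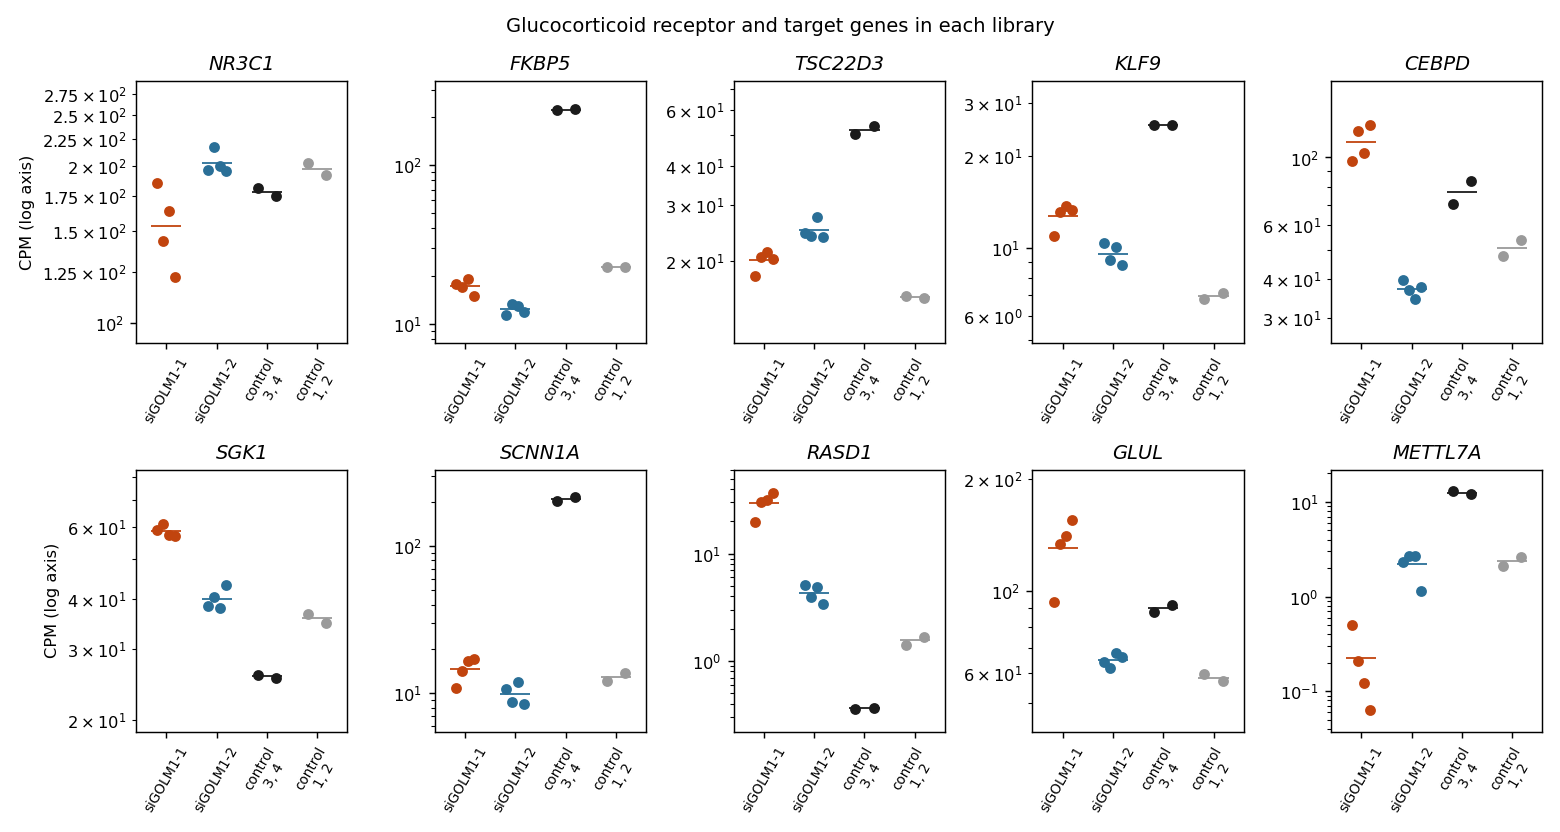
Expression of the receptor gene and the 9 target genes in each library, in CPM on a log axis; points are libraries, lines are means, and the control is drawn as replicates 3 and 4 and replicates 1 and 2. FKBP5 stands at 221 and 225 CPM in control replicates 3 and 4, and at 11.4 to 22.8 CPM in the other 10 libraries.

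The transcription regulators among the targets differed in kind. TSC22D3 (ENSG00000157514) encodes GILZ, a leucine zipper protein that carries part of the anti-inflammatory action of glucocorticoids. It was at 50.5 and 53.5 CPM in control replicates 3 and 4 and at 15.5 and 15.2 CPM in control replicates 1 and 2, 3.38-fold apart. The siGOLM1-1 libraries were at 18.0, 20.7, 21.4 and 20.3 CPM and the siGOLM1-2 libraries at 24.5, 24.0, 27.5 and 23.8 CPM. Every knockdown library therefore lay between the control pairs. KLF9 (ENSG00000119138), a Krüppel-like repressor and a quick target of the receptor, showed that order too. It was at 25.3 and 25.4 CPM in control replicates 3 and 4 and at 6.78 and 7.14 CPM in control replicates 1 and 2, against 11, 13.1, 13.8 and 13.3 CPM with siGOLM1-1 and 10.4, 9.11, 10.1 and 8.77 CPM with siGOLM1-2. CEBPD (ENSG00000221869), a C/EBP family transcription factor, was highest with siGOLM1-1 instead. Its level was 97.6, 122, 103 and 128 CPM with siGOLM1-1 and 39.8, 36.9, 34.4 and 37.6 CPM with siGOLM1-2. The control held 47.5, 53.7, 70.7 and 83.8 CPM in replicates 1 to 4. The 3 groups did not overlap in CEBPD, and the control lay between the 2 siRNAs.

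SGK1 (ENSG00000118515), the serum- and glucocorticoid-regulated kinase that keeps sodium channels at the cell surface, was lower in the control pair where FKBP5 was higher. It was at 25.9 and 25.5 CPM in control replicates 3 and 4, against 36.7 and 34.7 CPM in control replicates 1 and 2, a 1.39-fold lower level. The siGOLM1-1 libraries held 59.1, 61.4, 57.5 and 57.3 CPM and the siGOLM1-2 libraries 38.4, 40.4, 38.0 and 43.1 CPM, all above every control library. RASD1 (ENSG00000108551), a small GTPase first named for its induction by dexamethasone, went the same way with a wider range. It had 1390, 1623, 1570 and 1744 counts with siGOLM1-1 and 254, 232, 248 and 172 counts with siGOLM1-2. The control had 17 and 18 counts in replicates 3 and 4 and 71 and 70 counts in replicates 1 and 2. In CPM that is 19.8 to 36.9 with siGOLM1-1, 3.42 to 5.13 with siGOLM1-2, and 0.360 to 1.68 in the control. The 3 groups did not overlap, and within the control RASD1 was 4.30-fold lower in replicates 3 and 4 than in replicates 1 and 2.

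The remaining targets are an enzyme and a membrane protein. GLUL (ENSG00000135821) encodes glutamine synthetase, which joins ammonia to glutamate. It was at 93.1, 134, 141 and 155 CPM with siGOLM1-1 and at 64.2, 61.8, 68.0 and 66.3 CPM with siGOLM1-2. The control held 87.8 and 91.5 CPM in replicates 3 and 4 and 59.6 and 57.1 CPM in replicates 1 and 2. All siGOLM1-1 libraries were above all control libraries, and the siGOLM1-2 libraries fell between the control pairs. METTL7A (ENSG00000185432), a lipid droplet and endoplasmic reticulum membrane protein with a methyltransferase fold, was nearly lost with siGOLM1-1. It had 35, 11, 6 and 3 counts with siGOLM1-1 and 116, 159, 136 and 58 counts with siGOLM1-2. The control had 609 and 603 counts in replicates 3 and 4 and 104 and 109 counts in replicates 1 and 2, 5.32-fold apart in CPM. The siGOLM1-2 libraries at 1.15 to 2.69 CPM overlapped control replicates 1 and 2 at 2.08 and 2.62 CPM, while siGOLM1-1 at 0.0635 to 0.498 CPM lay below all others.

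Set against all 4 control libraries in an edgeR fit of the 12 libraries, 4 of the 10 genes were called higher with siGOLM1-1 (CEBPD, SGK1, RASD1 and GLUL), where 23.7% of all genes tested were. Another 4 were called lower (NR3C1, FKBP5, SCNN1A and METTL7A), where 23.8% of all genes were. With siGOLM1-2, 2 were called higher (SGK1 and RASD1), where 21.8% of all genes were, and 4 were called lower (FKBP5, CEBPD, SCNN1A and METTL7A), where 23.2% of all genes were. Because the genes were chosen with this contrast in view, nothing is read from these counts. The call of NR3C1 with siGOLM1-1 was lost without control replicate 1 (-0.25) or 2 (-0.27) and without siGOLM1-1 replicate 2 (-0.26) or 4 (-0.19). That of METTL7A with siGOLM1-2 was lost without control replicate 3 (-1.35) or 4 (-1.41) and without siGOLM1-2 replicate 4 (-1.54). Leaving out control replicate 1 or 2 added calls for TSC22D3 with siGOLM1-1 (-0.99 and -0.98) and for KLF9 with siGOLM1-2 (-1.01 and -0.98). Both siRNAs were compared with the same control libraries. Between the control pairs, 5 of the 10 were at least 2-fold higher in replicates 3 and 4 without overlap, where 2.36% of 17530 genes were. RASD1 was at least 2-fold lower, where 3.31% of genes were, and the other 4 moved by less.

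The size and often the sign of a difference from control depended on the control pair. For FKBP5 the log2 fold change with siGOLM1-1 was -2.84 (SE 0.65) against all 4 controls, -3.69 against the pair of replicates 3 and 4 and -0.40 against the pair of replicates 1 and 2. With siGOLM1-2 the same 3 values for FKBP5 were -3.32 (SE 0.67), -4.16 and -0.88, so the direction held and the size did not. For SCNN1A they were -2.93 (SE 0.78), -3.83 and 0.17 with siGOLM1-1, and -3.49 (SE 0.80), -4.38 and -0.39 with siGOLM1-2. SCNN1A with siGOLM1-1 thus changed sign.

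TSC22D3 gave -0.75 (SE 0.35), -1.36 and 0.39 with siGOLM1-1, and -0.43 (SE 0.34), -1.04 and 0.70 with siGOLM1-2. KLF9 gave -0.34 (SE 0.36), -0.98 and 0.88 with siGOLM1-1, and -0.76 (SE 0.37), -1.39 and 0.46 with siGOLM1-2. Both regulators were lower than control replicates 3 and 4 and higher than control replicates 1 and 2 with either siRNA. GLUL with siGOLM1-2 also changed sign, at -0.18 (SE 0.17), -0.45 and 0.16. METTL7A with siGOLM1-2 was at -1.75 (SE 0.57), -2.48 and -0.08.

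Other differences kept their direction against either pair. RASD1 was higher by 4.97 (SE 0.40) with siGOLM1-1, by 6.36 against the pair of replicates 3 and 4 and by 4.26 against the other pair. With siGOLM1-2 the RASD1 values were 2.19 (SE 0.39), 3.59 and 1.48. SGK1 was higher by 0.94 (SE 0.11), 1.20 and 0.72 with siGOLM1-1, and by 0.38 (SE 0.11), 0.65 and 0.16 with siGOLM1-2. CEBPD was higher with siGOLM1-1 (0.82, SE 0.15, with 0.55 and 1.15 against the pairs) and lower with siGOLM1-2 (-0.78, SE 0.15, with -1.04 and -0.45). GLUL was higher with siGOLM1-1 (0.82, SE 0.17, with 0.55 and 1.16), and METTL7A was lower (-4.94, SE 0.71, with -5.67 and -3.28). Without siGOLM1-1 replicate 1 that METTL7A value was -5.78.

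**Figure D2:**
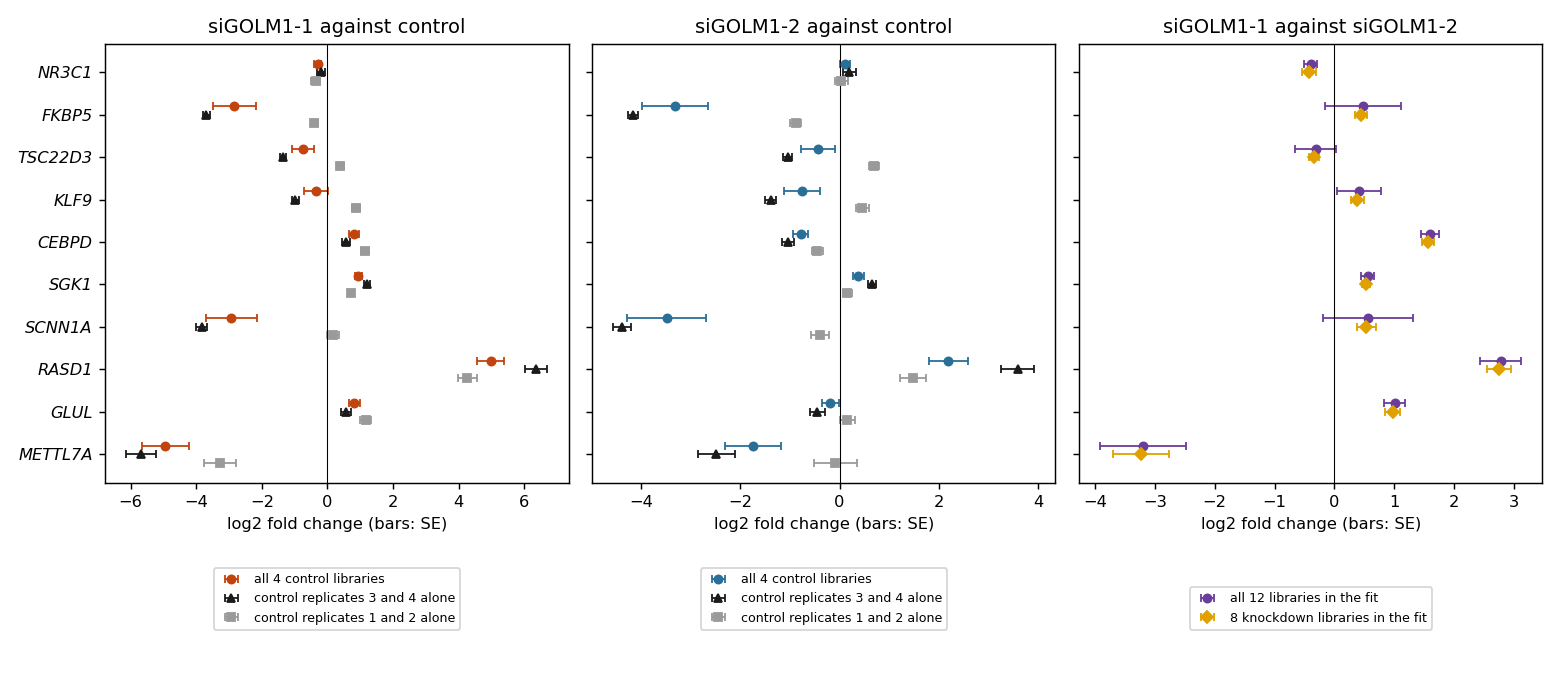
Log2 fold changes of the 10 genes with their SE, for siGOLM1-1 and siGOLM1-2 against all 4 control libraries, control replicates 3 and 4 alone and control replicates 1 and 2 alone, and for siGOLM1-1 against siGOLM1-2. TSC22D3 and KLF9 lie left of 0 against control replicates 3 and 4 and right of 0 against control replicates 1 and 2.

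The comparison of siGOLM1-1 with siGOLM1-2 uses no control library for its means and was tested. The 10 genes were chosen with earlier results of these data in view. Their adjusted p-values, in this fit and in the smaller one below, are therefore a description. In the fit of all 12 libraries, 4 of the 10 genes were higher with siGOLM1-1 (27.9% of all genes were called higher) and 2 were lower (26.5% of all genes). RASD1 was higher by 2.78 on the log2 scale (SE 0.34, edgeR adjusted p = 1.76e-05). CEBPD was higher by 1.60 (SE 0.15, adjusted p = 1.62e-06), GLUL by 1.00 (SE 0.17, adjusted p = 0.000255) and SGK1 by 0.56 (SE 0.11, adjusted p = 0.000687). NR3C1 was lower at -0.40 (SE 0.11, adjusted p = 0.00563) and METTL7A at -3.19 (SE 0.72, adjusted p = 0.0021). Without siGOLM1-1 replicate 1, which had the most METTL7A counts of its group, the METTL7A value was -4.03. In each of these 6 genes the 4 libraries of one siRNA did not overlap the 4 of the other. The same was true of FKBP5, KLF9 and TSC22D3, which were not called in this fit. The share of all genes without such overlap was not counted, so nothing is read from this.

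FKBP5 (0.48, SE 0.63, adjusted p = 0.548), SCNN1A (0.56, SE 0.75, adjusted p = 0.555), KLF9 (0.42, SE 0.37, adjusted p = 0.36) and TSC22D3 (-0.31, SE 0.34, adjusted p = 0.465) did not pass in that fit. Its estimate of the spread includes the 4 control libraries. With only the 8 knockdown libraries in the fit all 10 genes passed, where 26.0% of 17074 genes were called higher and 28.1% lower, with FKBP5 at 0.45 (adjusted p = 0.00283), SCNN1A at 0.53 (0.0153), KLF9 at 0.38 (0.00818) and TSC22D3 at -0.34 (0.00516). FKBP5 libraries of siGOLM1-1, at 14.9 to 19.1 CPM, were all above those of siGOLM1-2, at 11.4 to 13.2 CPM. In that smaller fit 7 of the 10 were higher and 3 lower with siGOLM1-1.

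Across the 12 libraries the targets varied in groups, described here by Pearson correlations of log2 CPM that rest largely on group means and the control split. FKBP5 and SCNN1A correlated at 0.98, SGK1 and RASD1 at 0.97, and CEBPD and GLUL at 0.90. METTL7A ran opposite to SGK1 and RASD1, at -0.95 with each. NR3C1 correlated at -0.90 with GLUL, -0.85 with CEBPD and 0.66 with METTL7A, and at -0.04 with FKBP5. Its other 5 values lay between -0.55 with RASD1 and 0.03 with TSC22D3. Of 11189 other genes that averaged 5 CPM or more, those most like FKBP5 were FLVCR2 (0.98), ATP10A (0.95), TRAM2 (0.95), FAIM (0.95) and SRSF10 (0.95). FLVCR2, a haem and choline transporter family member, was at 15.1 and 15.0 CPM in control replicates 3 and 4 and at 6.02 and 6.18 CPM in replicates 1 and 2. Those most like NR3C1 were SMEK2 (0.99), NUP50 (0.98), KIAA0586 (0.98), MST4 (0.97) and PARG (0.97).

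The rest of the pathway was read from 4 lists with 86 genes, 80 of them tested. Over all genes tested the median log2 fold change was -0.01 for siGOLM1-1 against control, -0.01 for siGOLM1-2 against control and 0.01 for siGOLM1-1 against siGOLM1-2. Counts of list members that passed are to be read against the 21.8% to 27.9% of all genes called in a given direction.

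All 15 genes for folding of the receptor and its co-chaperones were tested, and more fell than rose with either siRNA. With siGOLM1-1, 3 rose and 7 fell (median -0.13), and with siGOLM1-2, 3 rose and 8 fell (median -0.29). HSP90AA1, the inducible HSP90 that holds the receptor ready for hormone, was at 1185 to 1487 CPM with siGOLM1-1, 1558 to 1704 CPM with siGOLM1-2 and 2354 to 2765 CPM in the control. It fell by 0.91 with siGOLM1-1 (SE 0.09, adjusted p = 1.87e-06). DNAJA1, an HSP40 co-chaperone, fell by 1.40 with siGOLM1-1 (SE 0.09, adjusted p = 3.37e-08), while ST13, the HSP70-interacting protein Hip, rose by 0.61 (SE 0.06, adjusted p = 3.2e-06).

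With siGOLM1-2 the constitutive HSP90AB1 fell by 0.82 (SE 0.07, adjusted p = 6.84e-07) and the HSP110 chaperone HSPA4 fell by 0.82 (SE 0.07, adjusted p = 7.06e-07). FKBP4, the immunophilin FKBP52 that helps carry the receptor to the nucleus, was at 329 to 349 CPM with siGOLM1-1, 175 to 195 CPM with siGOLM1-2 and 288 to 313 CPM in the control. It fell by 0.72 with siGOLM1-2 (SE 0.06, adjusted p = 9.64e-07), and was 0.89 higher with siGOLM1-1 than with siGOLM1-2 (SE 0.06, adjusted p = 4.79e-08). Between the siRNAs, 8 genes of the list were higher with siGOLM1-1 and 4 lower (median 0.18). Between control replicates 3 and 4 and control replicates 1 and 2, 0 of the 15 differed by 2-fold or more without overlap (median 0.00). Over all genes, 2.36% were higher and 3.31% lower in this way.

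Of 17 genes for ligand supply and coregulators of the receptor, 16 were tested. With siGOLM1-1, 4 rose and 3 fell (median 0.14), and with siGOLM1-2, 5 rose and 3 fell (median -0.02). The coactivator NCOA1 rose with both, by 0.51 with siGOLM1-1 (SE 0.08, adjusted p = 9.88e-05) and by 0.56 with siGOLM1-2 (SE 0.08, adjusted p = 5.49e-05). NCOA3, a related coactivator, rose by 0.47 with siGOLM1-1 (SE 0.09, adjusted p = 0.000658). ABCB1, an efflux pump that exports steroids, was at 0.529 to 1.08 CPM with siGOLM1-1 and 1.20 to 1.61 CPM in the control, and fell by 1.05 (SE 0.23, adjusted p = 0.0019). SERPINA6, which encodes the cortisol-binding globulin, was at 0.711 to 1.23 CPM with siGOLM1-2 and 1.79 to 3.12 CPM in the control, and fell by 1.35 (SE 0.23, adjusted p = 0.000361). The 8 genes called with siGOLM1-2 became 4 without control replicate 3. Between the siRNAs, 4 were higher with siGOLM1-1 and 3 lower (median -0.03). Between the control pairs 0 of the 16 differed by 2-fold or more without overlap (median -0.06), where 2.36% of all genes were higher and 3.31% lower.

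Of 36 other genes known to be induced by glucocorticoids, 34 were tested, and many were higher in the control pair where FKBP5 and SCNN1A were. In control replicates 3 and 4, 14 of the 34 were at least 2-fold higher without overlap than in control replicates 1 and 2, and 0 were lower (median 0.72, against -0.01 over all genes). Over all 17530 genes, 2.36% were higher in this way and 3.31% lower. The list was drawn up with earlier results of these data known, so the count is a description. The ratio was above 0 for 28 of the 34. PER1, a clock gene with a receptor element in its promoter, was at 105 and 111 CPM in control replicates 3 and 4 and at 10.4 and 11.8 CPM in replicates 1 and 2, a log2 ratio of 3.28. MAOA, which degrades amine transmitters, was at 104 and 106 CPM against 7.55 and 8.46 CPM (3.71). ANGPTL4, a lipoprotein lipase inhibitor, was at 66.4 and 73.8 CPM against 5.38 and 5.07 CPM (3.74). SCNN1B, the beta subunit of the same sodium channel as SCNN1A, was at 12.9 and 13.1 CPM against 0.220 and 0.265 CPM (5.75).

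CIDEC, a lipid droplet protein, was at 17.4 and 17.1 CPM in control replicates 3 and 4 and 1.86 and 2.21 CPM in replicates 1 and 2 (3.08). Among the other 9 of the 14 were ZFP36, TNFAIP3, NFKBIA, CDKN1C, ERRFI1, PDK4, RGS2 and DDIT4, with log2 ratios from 1.08 to 1.64. ZFP36, TNFAIP3 and NFKBIA are feedback inhibitors of inflammatory signalling. These genes were singled out after their values had been seen. Their part in the differences of the knockdown groups from control was not tested.

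**Figure D3:**
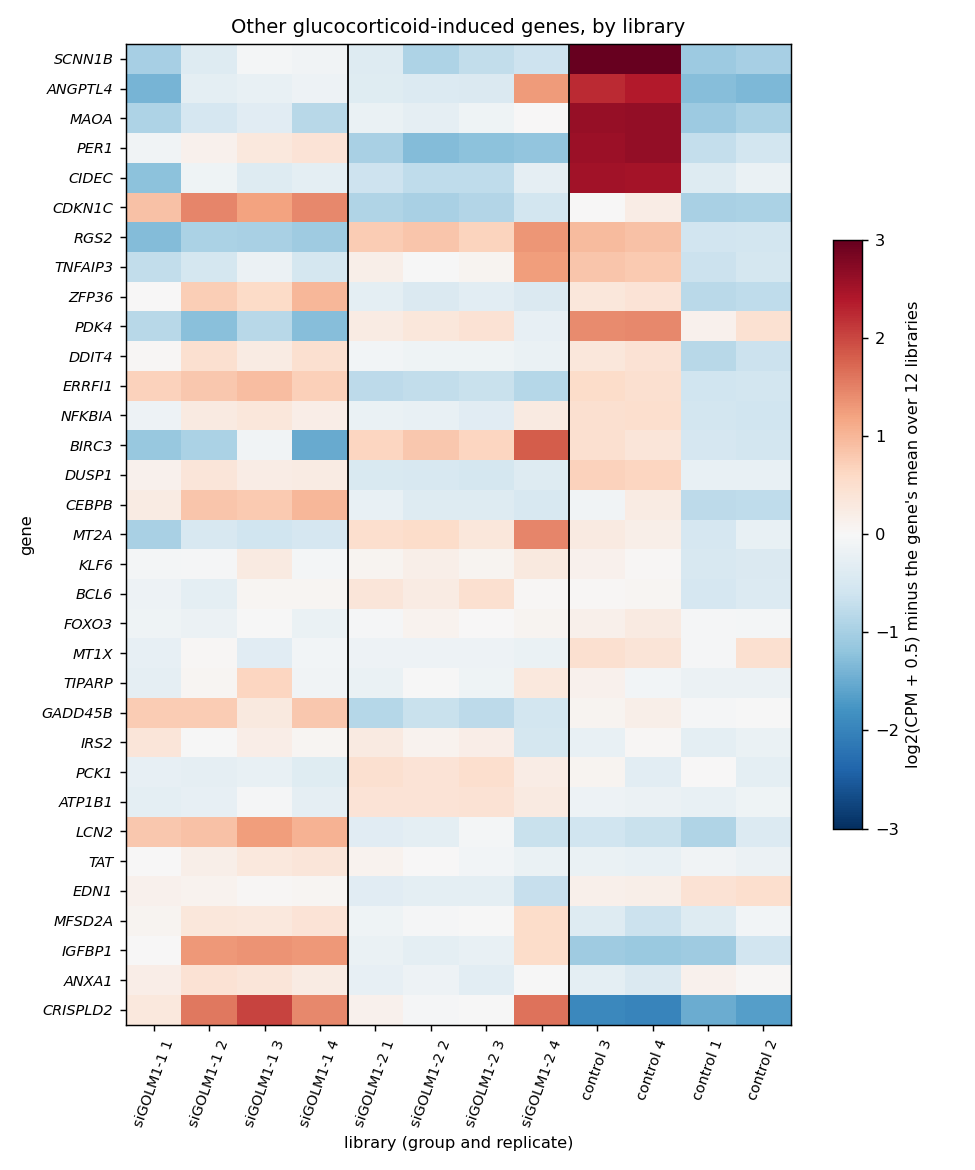
Expression of 33 of the other glucocorticoid-induced genes in the 12 libraries, as log2(CPM + 0.5) minus the gene's mean over the libraries, with genes in the order of the ratio between the control pairs. SCNN1B, ANGPTL4, MAOA, PER1 and CIDEC at the top are high in control replicates 3 and 4 and lower in the other 10 libraries.

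Against all 4 controls, 12 of these 34 genes rose and 6 fell with siGOLM1-1 (median 0.12), and 8 rose and 10 fell with siGOLM1-2 (median -0.06). PCK1, which rose with siGOLM1-2, passed the filter on low counts only through that group, so its rise was fixed in advance. Against control replicates 3 and 4 alone, where 36 genes passed the filter, 10 rose and 15 fell with siGOLM1-1 (median -0.10) and 5 rose and 18 fell with siGOLM1-2 (median -0.47). The genes added there, ZBTB16 and SCNN1G, passed the filter only through their counts in control replicates 3 and 4. A fall of these genes was therefore fixed in advance. Against control replicates 1 and 2 alone, 17 rose and 3 fell with siGOLM1-1 (median 0.48) and 13 rose and 4 fell with siGOLM1-2 (median 0.40). The balance of rises and falls differed with the control pair. That split was itself seen in these values, so nothing is supported with it. In these smaller fits fewer genes passed in all. Against replicates 3 and 4 alone, 20.8% of 18206 genes rose and 19.6% fell with siGOLM1-1, and 20.1% rose and 19.0% fell with siGOLM1-2. Against replicates 1 and 2 alone, 20.2% of 18198 genes rose and 19.7% fell with siGOLM1-1, and 18.2% rose and 17.9% fell with siGOLM1-2.

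Several induced genes differed from the control by more than the control pairs differed from each other. LCN2, a siderophore-binding acute phase protein, was at 34.7 to 46.9 CPM with siGOLM1-1 and 10.1 to 14.6 CPM in the control, and rose by 1.68 (SE 0.14, adjusted p = 6.73e-07). CRISPLD2, a secreted protein that glucocorticoids raise in airway muscle, was at 9.15 to 31.1 CPM with siGOLM1-1 and 1.47 to 2.26 CPM in the control, and rose by 3.53 (SE 0.47, adjusted p = 4.7e-05). CRISPLD2 also rose with siGOLM1-2, by 2.67 (SE 0.46, adjusted p = 0.000436). PDK4, which restrains pyruvate dehydrogenase, was at 35.7 to 49.2 CPM with siGOLM1-1, against 234 and 238 CPM in control replicates 3 and 4 and 94.9 and 119 CPM in replicates 1 and 2. It fell by 2.02 (SE 0.28, adjusted p = 5.99e-05).

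With siGOLM1-2, the sodium pump subunit ATP1B1 rose by 0.56 (SE 0.08, adjusted p = 4.98e-05), endothelin EDN1 fell by 0.73 (SE 0.10, adjusted p = 5.99e-05) and the stress gene GADD45B fell by 0.78 (SE 0.11, adjusted p = 8.08e-05). Between the siRNAs, 11 were higher with siGOLM1-1 and 8 lower (median 0.23). GADD45B was 1.41 higher with siGOLM1-1 (SE 0.11, adjusted p = 2.2e-07) and LCN2 1.35 higher (SE 0.14, adjusted p = 2.67e-06), while ATP1B1 was lower at -0.59 (SE 0.08, adjusted p = 1.63e-05).

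Most of the listed genes that glucocorticoids are known to repress lay the other way between the control pairs. PLAU, described below, was instead higher in control replicates 3 and 4, at 146 and 142 CPM against 118 and 119 CPM. Of 18 listed, 15 were tested, and 5 were at least 2-fold lower without overlap in control replicates 3 and 4 than in control replicates 1 and 2, with 0 higher (median -0.79). Over all 17530 genes, 3.31% were lower in this way and 2.36% higher. This list, too, was drawn up with earlier results of these data known. The 5 genes are named here after their values had been seen. IL11, an IL-6 family cytokine, was at 26.5 and 26.2 CPM in control replicates 3 and 4 and at 105 and 105 CPM in replicates 1 and 2. PTGS2, the inducible cyclooxygenase, was at 65.3 and 66.9 CPM against 146 and 163 CPM, and the chemokine CXCL3 at 1.86 and 1.77 CPM against 4.04 and 4.06 CPM. MMP1, at 0.0604 to 0.520 CPM in the control, and CCL5, at 0.0635 to 0.50 CPM, were near the floor.

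**Figure D4:**
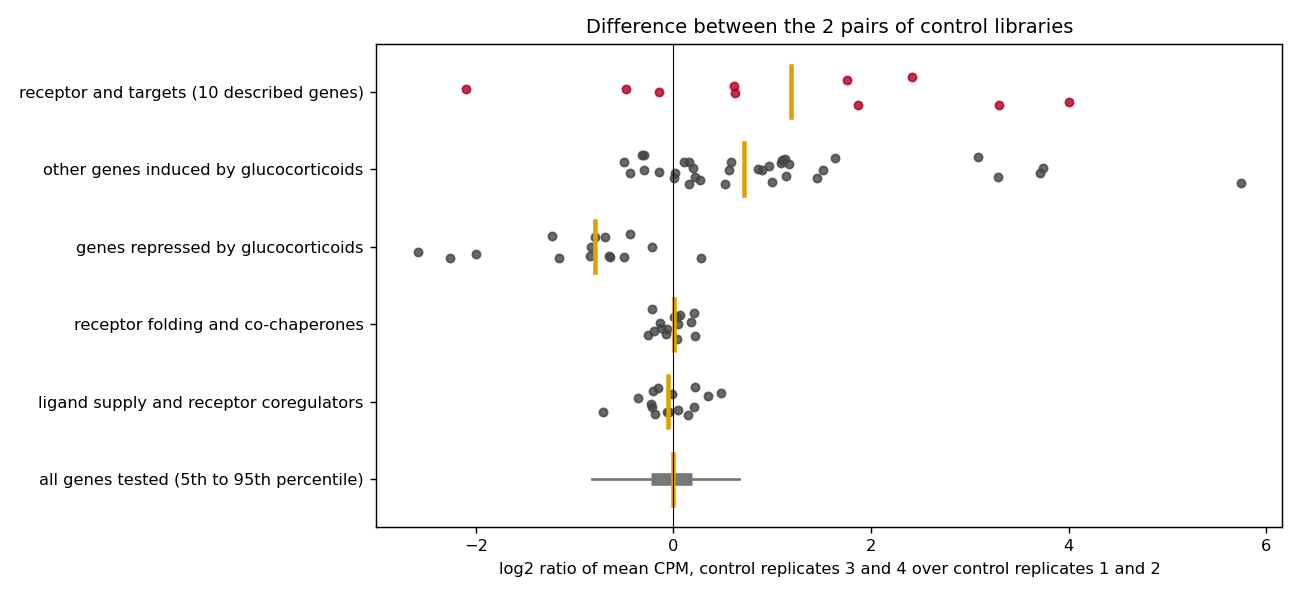
Log2 ratio of mean CPM, control replicates 3 and 4 over control replicates 1 and 2, for the 10 described genes, 4 lists of pathway genes and all 17530 genes; points are genes, yellow bars medians, and the thick and thin grey lines span the 25th to 75th and the 5th to 95th percentile. Induced genes have a median of 0.72, repressed genes of -0.79 and both other lists lie near 0.

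Against all 4 controls, 4 of the 15 repressed genes rose and 1 fell with siGOLM1-1 (median 0.48), and 9 rose and 2 fell with siGOLM1-2 (median 0.98). Against control replicates 3 and 4 alone, 8 of 16 rose and 1 fell with siGOLM1-1 (median 1.10) and 11 rose and 1 fell with siGOLM1-2 (median 1.58). Against replicates 1 and 2 alone, 3 rose and 2 fell with siGOLM1-1 (median 0.16) and 8 rose and 4 fell with siGOLM1-2 (median 0.59). The gene added in these smaller fits was of CSF2, CCL20 and TNF, none of which exceeded 0.0847 CPM in a control library. It passed the filter only through counts in knockdown libraries. A rise of that gene was therefore fixed in advance, and nothing is supported with these counts. Over all genes in these smaller fits, 17.9% to 20.8% passed in a given direction. PLAU, the urokinase protease, was at 220 to 360 CPM with siGOLM1-1, 54.7 to 70.8 CPM with siGOLM1-2 and 118 to 146 CPM in the control. It rose by 1.27 with siGOLM1-1 (SE 0.15, adjusted p = 1.15e-05) and fell by 1.15 with siGOLM1-2 (SE 0.15, adjusted p = 3.51e-05).

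ICAM1, an adhesion receptor for leukocytes, rose by 1.95 with siGOLM1-1 (SE 0.37, adjusted p = 0.00077) and by 1.96 with siGOLM1-2 (SE 0.37, adjusted p = 0.000808). The monocyte chemokine CCL2 fell by 1.81 with siGOLM1-1 (SE 0.32, adjusted p = 0.000428). CCL5, a T cell chemokine, was at 4.66 to 7.75 CPM with siGOLM1-2, 0.0608 to 0.245 CPM with siGOLM1-1 and 0.0635 to 0.50 CPM in the control. It rose by 4.79 with siGOLM1-2 (SE 0.44, adjusted p = 3.07e-06), and by 5.73 without control replicate 1. CCL5 passed the filter on low counts only through siGOLM1-2, as did IL1A, which also rose there. A higher level of either with siGOLM1-2, against control or siGOLM1-1, was therefore fixed in advance. Their values are a description. The cytokine IL6 rose by 5.08 with siGOLM1-2 (SE 0.69, adjusted p = 6.97e-05), with 3.55, 3.71, 2.43 and 17.4 CPM in its 4 libraries and at most 0.289 CPM in the control. Without siGOLM1-2 replicate 4 the IL6 value was 4.02. Between the siRNAs 2 genes of the list were higher with siGOLM1-1 and 8 lower (median -0.50), among them CCL5 (-4.91, SE 0.44, adjusted p = 9.35e-07) and CCL2 (-2.47, SE 0.32, adjusted p = 2.55e-05).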

How the data were processed

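The authors' deposited table held raw read counts per gene for 57773 genes in 12 libraries. Per the labels' protocols, 200 ng of total RNA per sample went into a stranded mRNA kit, and reads were paired, of 101 bases each. The submitters' processing notes name bcl2fastq 2.20, STAR 2.7.3, hg19 and DESeq2 1.24.0. How reads were counted, with which annotation and strand setting, is not given in the sources used here, so overlapping or antisense genes and near-identical copies are uncertain.

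From the counts, edgeR 4.0.16 in R 4.3.3 was run with filterByExpr, TMM scaling and 1 robust quasi-likelihood fit of all 12 libraries (17532 genes, 9 residual degrees of freedom, common biological coefficient of variation 0.146). The threshold was an adjusted p (Benjamini-Hochberg, over all genes tested) of 0.05. Each SE is of a log2 fold change between groups of n = 4. CPM is the count per 1 M of the TMM-scaled library total. The fit treats the control libraries as independent, although their deviations over genes correlated at 0.33 and 0.39 within the pairs described and at -0.70 to -0.66 between them. The deviations were taken from the mean of the control group, which by itself makes these correlations more negative. The p-values set each difference against the spread between these libraries. Correlations used log2 CPM with a prior count of 2.

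The control pairs were compared by the ratio of mean CPM, with no test. The genes and the 4 lists were chosen with earlier results of these data known. Genes named from a list are the 3 with the smallest p in each comparison, apart from the ones said to have been singled out by their values; some genes that this rule allows are not reported here. The fit was tested on simulated counts. Alternatives were RLE scaling, library totals alone, no filter on low counts and a stricter one (1 CPM in 4 libraries), DESeq2 1.42.0, a replicate block, the 2 groups compared alone, each control pair alone and each library left out. Whether same-numbered libraries pair was not settled.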

Additional observations from a re-analysis of the deposited data

Results flagged for a closer look

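In 48 named genes and 3 groups of 4 libraries, 12 of 144 groups held a library set apart from the other 3 by Dixon's test at the 95% level. Chance gives about 1 such group in 20 where genes are not chosen by their values. Many of these genes were chosen by a split between the control pairs, which leaves little room for 1 control library to stand apart. That rate therefore does not hold for their control groups. None of the 12 was in the receptor gene or its 9 targets followed above, several of which were chosen with that split in view. In siGOLM1-2 replicate 4, 5 inflammatory or induced genes were high: ANGPTL4 at 34 CPM against 9.96 to 10.6 CPM in the other 3, CRISPLD2 at 23.8 against 7.11 to 8.03, ICAM1 at 8.49 against 3.22 to 3.82, IL6 at 17.4 against 2.43 to 3.71 and TNFAIP3 at 35.6 against 14.5 to 16.4. PLAU was at 70.8 CPM in that library against 54.7 to 56.2 CPM. Its ATP1B1 level was low, at 692 CPM against 768 to 777 CPM, as was EDN1 at 32.6 against 41.5 to 43.3. With siGOLM1-1, GOLM1 was at 37.5 CPM in replicate 4 against 38.7 to 38.9 CPM in the others. ANGPTL4 was at 4.92 CPM in siGOLM1-1 replicate 1 against 11.1 to 12.2 CPM, and GADD45B was at 34.9 CPM in siGOLM1-1 replicate 3 against 47.9 to 50.1 CPM. ABCB1 was at 1.20 CPM in control replicate 1 against 1.55 to 1.61 CPM in the other control libraries.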

How the results depend on the processing

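For the 10 genes, all 21 alternatives kept the direction of every difference from control except with control replicates 1 and 2 alone, where TSC22D3 and KLF9 with either siRNA, GLUL with siGOLM1-2 and SCNN1A with siGOLM1-1 (0.17) changed sign. Between the siRNAs all 21 kept the direction of all 10 genes. The number called there was 10 with control replicates 1 and 2 alone, with control replicates 3 and 4 alone and with only the 2 groups, against 6 in the fit of 12 libraries. Genes of ligand supply and coregulators called with siGOLM1-2 numbered 4 with control replicates 1 and 2 alone and 4 with no filter, against 8. They ran from 4 to 8 when each library was left out, with 4 or 5 without control replicate 3 or 4 or siGOLM1-2 replicate 1, 2 or 3. Between the siRNAs that count ran from 4 to 7, with 4 without siGOLM1-1 replicate 3 or siGOLM1-2 replicate 1. Repressed genes called with siGOLM1-1 numbered 9 of 16 tested with control replicates 3 and 4 alone, against 5 of 15. The KLF9 ratio between the control pairs was 1.80 with library totals alone, against 1.87. Library totals alone shifted the median of all genes by -0.13 between the siRNAs, where 3564 genes were called higher and 5957 lower, against 4887 and 4654. For siGOLM1-2 against control that split was 4682 and 3233, against 3814 and 4071. Same-numbered libraries correlated over 0.1 in 3 of 12 pairs (range -0.20 to 0.35), and 4 of the 12 matched best with their own number. The control split weighs on these values, so they do not settle whether the numbers pair the libraries. With the replicate block 7, 5 and 6 of the 10 genes were called in the comparisons of siGOLM1-1 with control, siGOLM1-2 with control and the siRNAs with each other, against 8, 6 and 6. The causes of these changes were not tested.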

Other observations

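Of the pathway genes listed, 6 had too few counts in the groups to be tested in the fit of 12 libraries, and 3 of them were seen almost only in control replicates 3 and 4. ZBTB16, a zinc finger repressor known for strong induction by glucocorticoids, was at 2.90 and 3.04 CPM there, at 0 in control replicates 1 and 2 and in every siGOLM1-1 library, and at most 0.0202 CPM with siGOLM1-2. SCNN1G, the gamma subunit of the epithelial sodium channel, was at 9.44 and 10.4 CPM in control replicates 3 and 4, at 0.160 and 0.216 CPM in replicates 1 and 2, and at most 0.137 CPM in the knockdown libraries. HSD11B1, the enzyme that turns cortisone into cortisol, was at 1.86 and 1.57 CPM in control replicates 3 and 4, at 0.0400 and 0 CPM in replicates 1 and 2, and at most 0.0795 CPM in the knockdown libraries. Of the repressed genes, CSF2 was at 1.27 CPM in siGOLM1-2 replicate 4 and at most 0.161 CPM in every other library. CCL20 was at most 0.457 CPM and TNF at most 0.0196 CPM in all 12 libraries. These genes were named after their values had been seen.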
